A study of Homo sapiens with 12 samples.

Results

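Parental KYSE450 cells (K450P) were compared with parental KYSE30 cells (K30P), both established human esophageal squamous cell carcinoma (ESCC) lines, over every gene whose FPKM reached 1 in 3 or more libraries of this comparison. FPKM is a fragment count scaled to transcript length and library size, so that it is a level per transcript length. Each line had 3 libraries, which made up 6 of the 12 libraries of the series. The other 6 came from cells selected by rounds of lung metastasis in mice, with 3 libraries each. K30LM3 came from KYSE30 after 3 rounds and K450LM2 from KYSE450 after 2 rounds. Line and number of rounds therefore cannot be told apart in the selected cells. All cells carried a lentiviral luciferase reporter and had been selected with G418, and the growth medium was RPMI with fetal bovine serum. RNA was read from poly(A) transcripts. Each group is 1 cell line, so a difference between K450P and K30P cannot be told apart from a difference between 2 tumors, and no other ESCC line was used here. The study's methods call the replicates biological and do not say that they were separate cultures, so the p-values below measure only the spread between these libraries.

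Stratified squamous epithelium, the lining of the esophagus, is built from a basal layer marked by KRT5, KRT14 and the transcription factor p63 (TP63), and from suprabasal layers that carry KRT4 and KRT13 in the esophagus. Keratins act as pairs of a type I and a type II protein that form filaments anchored in desmosomes. KRT8, KRT18, KRT7 and KRT19 are the keratins of simple epithelia and are often kept by carcinoma lines.

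A gene was called different when its adjusted p from limma was below 0.05 and its fold change above 2. Of 14778 genes tested, 5203 were called (35.2%). K450P was higher at 1966 of them (13.3% of tested genes) and K30P at 3237 (21.9%), so that 37.8% of the called genes were higher in K450P. The median log2 fold change of all tested genes was -0.14 (K450P minus K30P, on log2(FPKM + 0.1), a scale that understates the change of low genes). Quantile normalization moved this median to 0.05 and median centering to 0.09, and 49.3% and 50.1% of the called genes were then higher in K450P. The split between the directions therefore moved with the scaling, and counts for gene groups below are to be read against the 13.3% and 21.9% of all tested genes. The lines differed so widely that the libraries of K450P and K30P did not overlap at 12196 of the 14778 genes (82.5%). Libraries correlated at r = 0.9859 to 0.9881 within a line and at 0.7244 to 0.7295 between lines (Pearson, across genes, which are not independent replicates). Among called genes named below, the largest adjusted p was 0.00479 (PRDM1), and fold changes are given with the standard error of the limma fit. Where values of both lines follow each other unnamed, those of K30P come first. The estimated depth was 23.6 to 28.6 M (mega) fragments per library.

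The K450P libraries had the fuller set of squamous markers. Of 24 squamous epithelium markers measured, 20 were higher in K450P, 1 was higher in K30P (LY6D), and COL17A1, SERPINB5 and KLF5 did not pass the fold threshold. The summed level of these markers was 22050 to 23015 FPKM in the K450P libraries and 1029 to 1094 FPKM in the K30P libraries. This sum is weighted to a few keratins, with KRT5 alone at 6412 to 6726 FPKM in K450P. Both lines nevertheless held defining squamous markers: TP63 was 21.6, 23.1 and 21.8 FPKM in K30P and 201, 209.7 and 206 FPKM in K450P, SOX2 was 22.4, 22.9 and 22.2 and 56.6, 62.0 and 64.6 FPKM, and TRIM29 was 30.5, 31.5 and 29.4 and 76.0, 76.8 and 76.0 FPKM. The K450P values of these genes lay above the K30P values in every library. KRT5, another defining marker, was at or near 0 in K30P. The defining markers KRT17 (1.11, 0.80 and 1.16 FPKM in K30P), KRT14 and DSG3 were also low there. The full defining set was KRT5, KRT14, KRT17, TP63, SOX2, SFN, DSG3, TRIM29 and SERPINB5, of which SERPINB5 did not pass the fold threshold. K30P therefore fell short at several, but not all, defining markers of its label. None of 16 intestinal epithelium markers reached the level needed for testing. Of 14 leukocyte markers 4 were tested, 2 higher in K450P and 2 higher in K30P. The leukocyte markers PTPRC and MS4A1 were at most 0.29 FPKM and 0 FPKM in any of the 6 libraries.

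A set of genes was present in one line and near 0 in the other. Genes with a mean of at least 10 FPKM in K450P and under 0.5 FPKM in every K30P library numbered 70, and the reverse set numbered 109. Such genes were tested through the level of 1 line alone and had to differ, so counts over the tested members of a list are descriptions. With all tested genes kept, a setting chosen after the data were seen, leaving out any 1 library gave 1948 to 1988 called genes higher in K450P and 3195 to 3256 higher in K30P. When the filter was applied again to the remaining 5 libraries, genes present in the reduced line alone dropped out, so that leaving out K450P replicate 1, 2 or 3 gave 1260, 1246 and 1253 genes higher in K450P, and leaving out K30P replicate 1, 2 or 3 gave 2130, 2165 and 2106 genes higher in K30P.

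**Figure D1:**
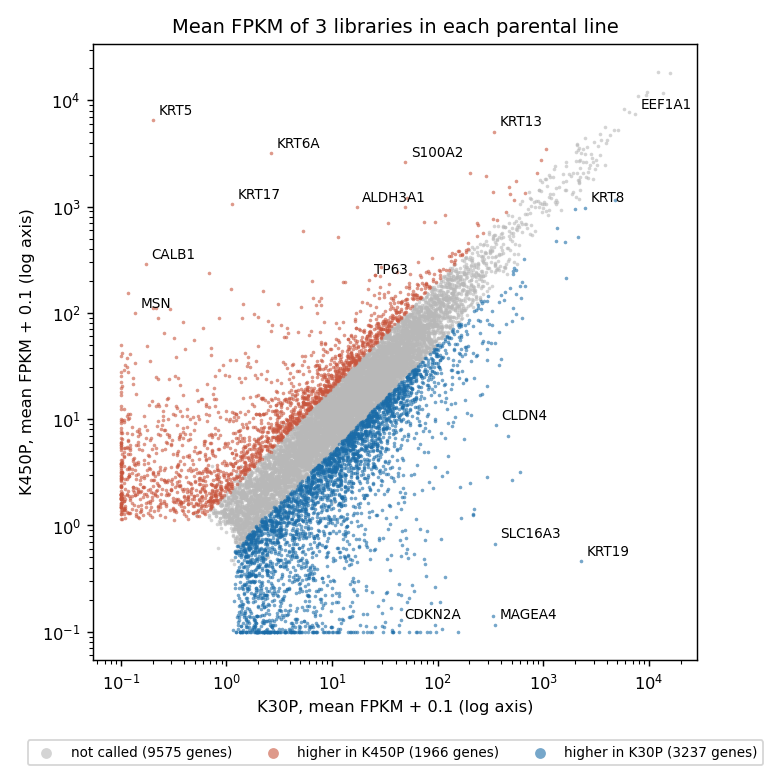
Mean FPKM + 0.1 of 3 libraries in K30P (x, log axis) and K450P (y, log axis) for the 14778 genes tested, colored by call. The 1966 genes higher in K450P lie above the diagonal band with KRT5 and CALB1 far from it, and the 3237 genes higher in K30P lie below it with KRT19 and SLC16A3 far from it.

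The keratins gave the largest single differences. KRT5, the type II keratin of the basal layer, was 0.17, 0 and 0.14 FPKM in the K30P libraries and 6412, 6726 and 6424 FPKM in the K450P libraries, log2 fold change 15.09 ± 0.34 (SE), the largest change toward K450P among genes of at least 10 FPKM. KRT14, its type I partner, was 5.08, 5.05 and 5.43 FPKM in K30P and 586, 607 and 591 FPKM in K450P, log2 fold change 6.81 ± 0.04 (SE). KRT15, another basal type I keratin, was 55.4, 49.2 and 50.2 FPKM in K30P and 1124, 1297 and 1212 FPKM in K450P, log2 fold change 4.55 ± 0.06 (SE). All K450P libraries were far above all K30P libraries at these basal keratins, but the K30P levels themselves differed, with KRT15 kept at a moderate level and KRT5 almost not detected.

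The keratins of wounded or activated epithelium showed the same direction. KRT6A was 2.57, 2.51 and 2.58 FPKM in K30P and 3225, 3257 and 3102 FPKM in K450P, log2 fold change 10.23 ± 0.03 (SE). KRT17 was 1.11, 0.80 and 1.16 FPKM in K30P and 1061, 1068 and 1039 FPKM in K450P, log2 fold change 9.89 ± 0.12 (SE). KRT16, the usual type I partner of KRT6A, differed much less, with 5.09, 5.47 and 4.83 FPKM in K30P and 16.3, 15.5 and 17.8 FPKM in K450P, log2 fold change 1.67 ± 0.08 (SE). In K450P the KRT16 level was therefore far below that of KRT6A, in FPKM. KRT6B had a mean of 0.0067 FPKM in K30P and 9.24 FPKM in K450P, and KRT6C was listed at 0 in all 3 K30P libraries and at 3.59, 3.88 and 3.91 FPKM in K450P. KRT6A, KRT6B and KRT6C are near-identical, so reads may have been divided among them and their separate values are uncertain.

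The suprabasal keratins of the esophagus were present in both lines. KRT13 was 352, 328 and 353 FPKM in K30P and 4847, 5323 and 4975 FPKM in K450P, log2 fold change 3.87 ± 0.04 (SE), and it was the highest stratified keratin of K30P. KRT4, the type II partner of KRT13, was 6.68, 5.54 and 6.85 FPKM in K30P and 197, 201 and 199.8 FPKM in K450P, log2 fold change 4.96 ± 0.08 (SE). KRT1, a keratin of cornifying epidermis, stayed low, with 0.02, 0.23 and 0.02 FPKM and 2.32, 1.96 and 2.05 FPKM. Of 27 stratified keratins measured, 12 did not reach the level needed for testing, and some others were tested through their K450P level alone. With no filter 14 of 26 were higher in K450P and 3 in K30P, and the median log2 fold change was 1.35. Of the 15 tested, 11 were higher in K450P and 3 in K30P, with a median log2 fold change of 4.55. Those 3 were KRT80 (126, 118 and 122 FPKM in K30P, 3.36, 2.75 and 3.16 FPKM in K450P), KRT23 (12.5 and 1.00 FPKM on average) and the hair keratin KRT86 (2.91 and 0.12 FPKM). KRT10 had 14.3, 13.8 and 13.8 FPKM in K30P and 13.2, 13.6 and 14.6 FPKM in K450P, with overlapping libraries and log2 fold change -0.02 ± 0.06 (SE).

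All 4 simple keratins tested were higher in K30P. KRT19, a type I keratin without a fixed partner, was 2415, 2164 and 2309.5 FPKM in K30P and 0.61, 0.27 and 0.20 FPKM in K450P, log2 fold change -12.39 ± 0.28 (SE), the largest change toward K30P by the same rule. KRT7 was 168, 159.5 and 171 FPKM in K30P and 0.73, 1.13 and 1.40 FPKM in K450P, log2 fold change -7.17 ± 0.19 (SE). The pair KRT8 and KRT18 was high in both lines and differed less. KRT8 was 2581, 2416 and 2499.6 FPKM in K30P and 953, 995 and 965 FPKM in K450P, log2 fold change -1.36 ± 0.03 (SE), and KRT18 was 1596, 1582 and 1596 FPKM and 454, 476 and 449 FPKM, log2 fold change -1.79 ± 0.03 (SE). The summed level of the stratified keratins was 545 to 585 FPKM in K30P and 17504 to 18529 FPKM in K450P, while that of the simple keratins was 6321 to 6760 FPKM in K30P and 1409 to 1472 FPKM in K450P. In bulk RNA, fewer cells that express a gene and less RNA of it per cell cannot be told apart.

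The transcription factors of squamous and epithelial identity did not follow 1 direction. Of 33 tested, 8 were higher in K450P and 10 in K30P without further scaling, which turned to 12 and 8 under quantile normalization and under median centering. TP63, the master factor of stratified epithelium, was 22.1 ± 0.80 FPKM (SD, n = 3) in K30P and 205 ± 4.51 FPKM in K450P, log2 fold change 3.21 ± 0.04 (SE). SOX2, on the same arm of chromosome 3 and its frequent partner in squamous carcinoma, had log2 fold change 1.43 ± 0.05 (SE). PITX1 was 4.53 FPKM in K30P and 28.4 FPKM in K450P on average, and PAX9, a factor of esophageal differentiation, was 2.93 and 17.8 FPKM. ZNF750, an inducer of terminal epidermal differentiation, was 0.09, 0.18 and 0.08 FPKM in K30P and 5.11, 4.20 and 4.76 FPKM in K450P, and GRHL3 was 2.14 and 7.61 FPKM on average.

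On the K30P side, ELF3, an ETS factor of epithelia, was 389, 379 and 415 FPKM in K30P and 36.9, 39.0 and 33.2 FPKM in K450P, log2 fold change -3.44 ± 0.06 (SE). GATA3 was 52.3, 48.5 and 46.8 FPKM in K30P and 0.67, 0.91 and 0.86 FPKM in K450P, log2 fold change -5.76 ± 0.12 (SE). SOX15 (26.04 and 1.15 FPKM), SOX9 (11.9 and 0.47 FPKM), TFAP2C (20.0 and 1.70 FPKM), CEBPA (9.13 and 1.05 FPKM) and OVOL1 (13.2 and 2.03 FPKM) were also higher in K30P, where the first mean of each pair is K30P. The calls of PRDM1 (-1.08) and GRHL2 (-1.21) toward K30P were each lost under median centering, that of PRDM1 also with a pseudocount of 1, and that of FOXA1 (-1.25) under quantile normalization. KLF5 (0.93), KLF4 (0.92) and CEBPB (0.87) fell just under the fold threshold toward K450P and passed it under median centering. NOTCH3 (11.7 ± 1.92 and 12.4 ± 1.51 FPKM) and GRHL1 (7.13 ± 0.34 and 7.06 ± 0.82 FPKM) were not called.

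NKX2-1, the lineage factor of lung and thyroid epithelium, was 0.30, 0.36 and 0.32 FPKM in K30P and 10.6 ± 0.38 FPKM in K450P, log2 fold change 4.65 ± 0.12 (SE). SCGB1A1, the secretoglobin of airway club cells, was 0.48, 0.37 and 0 FPKM in K30P and 81.4, 81.6 and 85.2 FPKM in K450P, log2 fold change 8.10 ± 0.60 (SE). Every K450P library was above every K30P library at both genes. Of 33 airway and secretory genes measured, 20 did not reach the level needed for testing, and of the 13 tested 11 were higher in K30P and SCGB1A1 and SLPI, a secreted protease inhibitor, were higher in K450P. Several of the 11 were tested through their K30P level alone. With no filter, 12 of 29 were higher in K30P and 5 in K450P, and the median log2 fold change was -0.16 in place of -2.34. AGR2, a protein disulfide isomerase of mucus-secreting cells, was 1589, 1647 and 1693 FPKM in K30P and 212, 203 and 216 FPKM in K450P, log2 fold change -2.96 ± 0.03 (SE). PSCA, a GPI-anchored surface antigen, was 108, 97.3 and 109 FPKM in K30P and 0.09, 0.06 and 0.12 FPKM in K450P, log2 fold change -9.12 ± 0.13 (SE), and MUC20 was 27.7 and 0.62 FPKM on average.

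Cell junction genes were found on both sides. Of 43 tested, 10 were higher in K450P and 15 in K30P. Those higher in K450P were DSG1, DSG3, DSC2, DSC3, DSP, PKP1 and PERP of desmosomes and the connexins GJA1, GJB2 and GJB6, while the desmosomal genes DSG2, JUP, PKP2 and PKP3 were not called and the connexin GJB5 was higher in K30P. PKP1, a plaque protein of stratified epithelium, was 0.01, 0.03 and 0.01 FPKM in K30P and 153, 157 and 149 FPKM in K450P, log2 fold change 10.36 ± 0.10 (SE). The desmosomal cadherins DSC3 and DSG3 were 3.00 and 4.99 FPKM in K30P and 121 and 113 FPKM in K450P, and DSP, which links the plaque to keratin filaments, had log2 fold change 2.96 ± 0.04 (SE). Among tight junction genes higher in K30P, CLDN4 was 371, 340.3 and 358 FPKM in K30P and 8.49, 9.02 and 8.35 FPKM in K450P, log2 fold change -5.35 ± 0.05 (SE), and CLDN7 had log2 fold change -3.29 ± 0.05 (SE). TJP3 was 46.8, 43.7 and 44.0 FPKM and 0.33, 0.45 and 0.46 FPKM. TJP1 and F11R, also of tight junctions, were not called (0.25 and 0.05). CDH1, the E-cadherin of adherens junctions, was 112 ± 4.92 FPKM in K30P and 64.1 ± 4.95 FPKM in K450P and did not pass the fold threshold (-0.80).

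Genes of the cornified envelope, the crosslinked shell of terminally differentiated keratinocytes, also went both ways, with 9 of 21 tested higher in K450P and 8 in K30P and a median log2 fold change of -0.27 that turned to 0.09 under quantile normalization. With no filter 14 of 39 were higher in K450P and 9 in K30P, and the median was 0.33. CSTA, a cysteine protease inhibitor, was 0.20, 0.08 and 0.06 FPKM in K30P and 107, 111 and 115 FPKM in K450P, log2 fold change 9.08 ± 0.22 (SE). CALML3, a calmodulin-like protein of epithelia, was 0.27, 0.20 and 0.11 FPKM in K30P and 106, 116 and 103 FPKM in K450P, log2 fold change 8.56 ± 0.19 (SE), and SPRR1B had log2 fold change 3.93 ± 0.14 (SE). On the other side LYPD3, a GPI-anchored surface protein, had log2 fold change -3.70 ± 0.06 (SE), PPL (periplakin) log2 fold change -1.54 ± 0.04 (SE) and SPRR3 log2 fold change -1.84 ± 0.08 (SE). IVL (involucrin), the classical envelope precursor, was 20.6, 21.9 and 20.5 FPKM in K30P and 0.27, 0.14 and 0.10 FPKM in K450P, higher in every K30P library.

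Among S100 calcium-binding proteins, 5 of 14 tested were higher in each line, which became 5 in K450P and 3 in K30P under median centering. S100A2, a target of p63 in keratinocytes, was 52.6, 50.6 and 44.4 FPKM in K30P and 2687, 2586 and 2604 FPKM in K450P, log2 fold change 5.74 ± 0.06 (SE). The calprotectin pair S100A8 (0.25 and 24.5 FPKM) and S100A9 (1.30 and 88.6 FPKM) was also higher in K450P. On the K30P side, S100P had log2 fold change -5.01 ± 0.44 (SE), S100A14 had log2 fold change -1.43 ± 0.03 (SE) and S100A4 log2 fold change -1.40 ± 0.06 (SE), and the calls of S100A11 (-1.05) and S100A13 (-1.08) were lost under median centering.

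Cytoskeletal and mesenchymal genes contained some of the strongest on-off differences. MSN (moesin), an ERM protein that links actin to the membrane, was 0.02, 0.04 and 0.05 FPKM in K30P and 97.5, 101.43 and 100.0 FPKM in K450P, log2 fold change 9.52 ± 0.11 (SE). The other ERM genes were present in both lines, with EZR (ezrin) at 218 ± 2.30 FPKM in K30P and 151 ± 0.03 FPKM in K450P and RDX at 44.3 ± 5.17 and 20.5 ± 0.33 FPKM. LCP1 (L-plastin), an actin-bundling protein best known from leukocytes, was 0.08, 0.20 and 0.10 FPKM in K30P and 89.8, 87.8 and 90.5 FPKM in K450P, log2 fold change 8.66 ± 0.18 (SE), while the leukocyte marker PTPRC was 0.05, 0.09 and 0.29 FPKM and 0.03, 0 and 0.02 FPKM. TPM2 had log2 fold change 4.85 ± 0.06 (SE). PDPN (podoplanin) was listed at 0 in every K30P library and was 21.7, 24.8 and 20.3 FPKM in K450P.

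Of 63 genes of the epithelial-mesenchymal list, 47 were tested, with 22 higher in K30P and 11 in K450P. Counts without the filter were 24 and 13 of 62, with a median log2 fold change of -0.34 in place of -0.82. FN1 (fibronectin) was 43.8 FPKM in K30P and 0.64 FPKM in K450P on average, and SPARC 3.22 and 0.10 FPKM. LGALS1 (galectin-1) was 506, 436 and 449.9 FPKM in K30P and 6.62, 8.27 and 5.44 FPKM in K450P, log2 fold change -6.09 ± 0.14 (SE). TGFBI was 216, 219 and 208 FPKM in K30P and 1.18 ± 0.06 FPKM in K450P, log2 fold change -7.39 ± 0.06 (SE). VIM (vimentin) was low in both lines, 1.19, 1.34 and 1.01 FPKM in K30P and 2.42, 2.54 and 2.18 FPKM in K450P, and missed the fold threshold (0.96), which it passed under quantile normalization, median centering and a pseudocount of 0.01, and without K30P replicate 2 or K450P replicate 3. SNAI2 (25.4 ± 1.37 and 37.8 ± 0.68 FPKM) and TWIST1 (6.27 ± 0.56 and 6.23 ± 0.21 FPKM), repressors of epithelial genes, were not called.

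Of 31 collagens and secreted matrix genes tested, 16 were higher in K30P and 5 in K450P, and of 27 integrins and laminins 10 were higher in K30P and 5 in K450P. Under median centering the counts higher in K30P were 12 and 9. SPOCK1, a secreted proteoglycan, was 74.7, 75.4 and 72.5 FPKM in K30P and 0.53, 0.19 and 0.43 FPKM in K450P, log2 fold change -7.34 ± 0.26 (SE). ITGB4, the integrin of hemidesmosomes, was 397, 355 and 383 FPKM in K30P and 60.1, 72.2 and 65.5 FPKM in K450P, log2 fold change -2.52 ± 0.07 (SE). Those higher in K450P included COL7A1, which forms the anchoring fibrils of squamous basement membrane, with 4.17, 2.33 and 4.36 FPKM in K30P and 68.7, 77.5 and 70.4 FPKM in K450P, log2 fold change 4.33 ± 0.22 (SE), and LAMA1, with 0.0033 and 20.6 FPKM on average.

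Proteases and their inhibitors followed, with 18 of 36 tested higher in K30P and 8 in K450P. The collagenase MMP13 was 0.05, 0.10 and 0.08 FPKM in K30P and 51.9, 45.1 and 48.5 FPKM in K450P, log2 fold change 8.11 ± 0.14 (SE), and the stromelysin MMP10 was 0.72, 0.33 and 0.45 FPKM and 72.8, 68.3 and 75.6 FPKM, log2 fold change 6.96 ± 0.21 (SE). Their inhibitors TIMP1 (59.1 FPKM in K30P, 1.88 FPKM in K450P) and TIMP2 (49.7 and 0.46 FPKM) had the opposite direction, as did PLAU, the urokinase plasminogen activator, log2 fold change -4.04 ± 0.05 (SE). CST6, a secreted cystatin, was 87.4, 82.0 and 85.4 FPKM in K30P and listed at 0 in every K450P library. F3, the tissue factor that starts coagulation, was 114, 121 and 115 FPKM in K30P and 6.45, 6.33 and 6.66 FPKM in K450P, log2 fold change -4.15 ± 0.04 (SE).

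Interferon-stimulated genes were higher in K30P at 30 of 41 tested members (21.9% of all tested genes were) and higher in K450P at 5, with a median log2 fold change of -2.02 (-0.14 over all tested genes). The interferon-stimulated response element (ISRE) is a repeat of GAAA bound by the STAT and IRF factors that carry the interferon signal. Promoter windows of 300 bases, from 250 before to 50 after the annotated start, were available in RefSeq (GRCh38.p14) for 23 of these 30 genes, and 65.2% held the ISRE pattern, written as 2 GAAA units with any 2 bases between them, on either strand. The pattern was in 2.5% of windows of all 10549 tested genes with a window and in 2.83% of the windows of all genes higher in K30P. It was also in 5 of 9 windows of the tested interferon-stimulated genes that were not higher in K30P. Windows of 4 members are shown as examples, and each holds more than 1 match in the 250 bases before the start. These windows were not picked by a count of matches over all members. They are written 5′ to 3′ on the strand of the gene, with matches to the pattern on either strand in capitals.
ISG15 promoter, chr1:1013247-1013496, plus strand: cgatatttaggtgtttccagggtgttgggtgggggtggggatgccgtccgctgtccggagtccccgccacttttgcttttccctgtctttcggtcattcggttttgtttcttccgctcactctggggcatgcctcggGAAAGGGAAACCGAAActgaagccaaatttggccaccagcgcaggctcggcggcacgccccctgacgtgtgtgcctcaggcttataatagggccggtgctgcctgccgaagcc
IFIT1 promoter, chr10:89392373-89392622, plus strand: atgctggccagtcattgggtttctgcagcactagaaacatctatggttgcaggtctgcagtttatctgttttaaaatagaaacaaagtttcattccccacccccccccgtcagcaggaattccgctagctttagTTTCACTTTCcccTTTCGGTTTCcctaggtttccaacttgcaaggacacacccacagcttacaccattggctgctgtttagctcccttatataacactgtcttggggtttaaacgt
IFIT3 promoter, chr10:89327747-89327996, plus strand: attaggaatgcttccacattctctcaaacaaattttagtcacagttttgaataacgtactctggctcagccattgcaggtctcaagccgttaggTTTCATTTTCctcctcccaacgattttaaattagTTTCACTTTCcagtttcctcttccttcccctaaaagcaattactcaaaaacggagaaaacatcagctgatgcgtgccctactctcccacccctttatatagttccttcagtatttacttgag
IFI6 promoter, chr1:27672193-27672442, minus strand: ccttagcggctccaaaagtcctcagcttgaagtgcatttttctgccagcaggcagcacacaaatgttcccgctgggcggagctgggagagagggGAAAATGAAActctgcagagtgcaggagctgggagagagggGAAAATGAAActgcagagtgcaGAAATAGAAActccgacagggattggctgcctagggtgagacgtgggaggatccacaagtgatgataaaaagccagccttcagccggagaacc

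In ISG15 the capitals are 2 overlapping matches, in IFIT1 and IFIT3 2 separate matches on the opposite strand, and in IFI6 3 separate matches. ISG15, a ubiquitin-like modifier, was 78.0, 74.9 and 82.0 FPKM in K30P and 10.7, 10.0 and 11.1 FPKM in K450P, log2 fold change -2.87 ± 0.06 (SE). IFIT1, which binds viral RNA, was 18.8, 21.3 and 19.5 FPKM and 3.32, 2.78 and 3.57 FPKM, and its neighbor IFIT3 was 12.5, 13.3 and 13.9 FPKM and 0.79, 0.63 and 0.69 FPKM. IFI6 was 10.49, 10.6 and 10.4 FPKM in K30P and 1.30, 1.23 and 0.65 FPKM in K450P. No K450P library reached the K30P range at any of the 4 genes.

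Of the pathway factors named here, IRF9 and IRF1 were higher in K30P, IRF7 was higher in K450P and STAT2 was not called. IRF9, a part of the complex that binds the ISRE, was 29.5, 22.1 and 26.2 FPKM in K30P and 3.43, 1.97 and 4.76 FPKM in K450P, and IRF1 was 35.9, 32.1 and 32.9 FPKM and 4.32, 5.65 and 5.51 FPKM. STAT2 was not called (37.5 ± 1.00 FPKM in K30P, 29.9 ± 0.95 FPKM in K450P). OAS1, a sensor of double-stranded RNA, was 68.3, 65.6 and 70.5 FPKM in K30P and 0.23, 0.34 and 1.91 FPKM in K450P, log2 fold change -6.68 ± 0.60 (SE), where 1 K450P library stood above the other 2 and still far below K30P. The members higher in K450P were IFI16, a DNA sensor (6.90, 6.69 and 7.22 FPKM in K30P, 112, 118 and 122 FPKM in K450P), IFI30, IFITM1, IRF7 and HERC5. IFI16 had log2 fold change 4.06 ± 0.05 (SE), and the call of IRF7 (1.72) was lost with a pseudocount of 1. GBP6, a guanylate-binding protein outside that list, was 0, 0 and 0.01 FPKM in K30P and 39.5, 41.2 and 43.5 FPKM in K450P.

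Cytokine and chemokine genes were higher in K30P at 11 of 23 tested and in K450P at 3, out of 59 measured. Without the filter the counts were 18 and 6 of 56, and the median log2 fold change was -0.34 in place of -0.85. The leukemia inhibitory factor gene LIF was 8.96, 8.81 and 9.73 FPKM in K30P and 0.62, 0.65 and 0.97 FPKM in K450P, log2 fold change -3.47 ± 0.17 (SE). IL4R had log2 fold change -2.69 ± 0.08 (SE). The neutrophil chemokine CXCL1 went the other way, 0.25, 0.33 and 0.20 FPKM in K30P and 4.27, 3.43 and 4.09 FPKM in K450P, log2 fold change 3.49 ± 0.18 (SE).

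Antigen presentation genes of MHC class I included 9 of 21 higher in K30P and 1 in K450P. HLA-B was 106, 97.0 and 104 FPKM in K30P and 16.4, 17.0 and 16.6 FPKM in K450P, log2 fold change -2.61 ± 0.04 (SE), and HLA-C had log2 fold change -2.96 ± 0.05 (SE). Reads of the class I genes can be assigned unequally between alleles, so their separate levels are uncertain. B2M, the shared light chain, was 967 ± 24.5 FPKM in K30P and 891 ± 21.8 FPKM in K450P and was not called.

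Cancer-testis genes, which are normally expressed in germ cells and become active in tumors, had some members that were high in K30P and near 0 in K450P. Of 45 members measured, 29 did not reach the level needed for testing, and of the 16 tested 13 were higher in K30P and 1 in K450P (21.9% and 13.3% of all tested genes). Members on in K30P alone were tested because of their K30P level, so these counts describe them and no more. With no filter 15 of 33 were higher in K30P and 1 in K450P, and the median log2 fold change was -0.78 in place of -7.30. MAGEA4 was 355, 341 and 339.6 FPKM in K30P and 0.05, 0 and 0 FPKM in K450P, log2 fold change -11.56 ± 0.16 (SE). CTAG2 was 163, 147 and 154 FPKM and MAGEA3 99.8, 92.4 and 95.6 FPKM in K30P, and both were listed at 0 in every K450P library. MAGEA6, near-identical to MAGEA3, was 91.6, 97.2 and 93.9 FPKM in K30P and 0.05, 0 and 0 FPKM in K450P, and the division of reads between the pair is uncertain. PRAME alone was higher in K450P, 0.02, 0 and 0.02 FPKM in K30P and 7.99, 7.16 and 6.60 FPKM in K450P.

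Other genes were present in 1 line only. UCA1, a long noncoding RNA found in urothelial cancer, was 314, 340.2 and 351 FPKM in K30P and 0, 0.04 and 0.08 FPKM in K450P, log2 fold change -11.27 ± 0.20 (SE). STRA6, the receptor for retinol-binding protein, was 114, 104 and 111 FPKM and 0, 0.02 and 0 FPKM, log2 fold change -10.01 ± 0.11 (SE). NLRP2 (80.7, 77.8 and 79.7 FPKM), MLPH, a melanosome transport adaptor (69.2, 66.3 and 68.8 FPKM), and the metallothionein MT1E (65.9, 58.4 and 63.9 FPKM) were high in K30P and listed at 0 in every K450P library.

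FAM50A, an X-linked gene linked to splicing, was 67.0, 58.7 and 63.7 FPKM in K30P and listed at 0 in every K450P library. Its retrotransposed copy FAM50B was 0.56, 0.55 and 0.43 FPKM in K30P and 5.57, 6.25 and 5.98 FPKM in K450P, log2 fold change 3.30 ± 0.14 (SE). The higher copy was thus FAM50A in K30P and FAM50B in K450P.

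On the K450P side, CALB1 (calbindin), a calcium buffer of neurons and kidney, was 0.06, 0.07 and 0.09 FPKM in K30P and 293, 284 and 287 FPKM in K450P, log2 fold change 10.70 ± 0.08 (SE). SNURF, from the imprinted locus on chromosome 15, was listed at 0 in every K30P library and was 35.4, 37.2 and 45.5 FPKM in K450P, and SNRPN, which shares its transcript with SNURF, was 0.05, 0 and 0 FPKM and 3.71, 5.68 and 4.57 FPKM. The 2 genes overlap, so reads may have been divided between them. MAGED1, an X-linked MAGE gene that is widely expressed in normal tissue, was 0.03, 0 and 0 FPKM in K30P and 31.6, 34.1 and 31.4 FPKM in K450P. The noncoding RNA LINC02582 (named CTD-2354A18 in the table) was listed at 0 in every K30P library and was 50.4, 50.4 and 47.0 FPKM in K450P.

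Receptor levels differed more than EGFR itself. EGFR was 351, 358 and 357 FPKM in K30P and 335, 347 and 339.6 FPKM in K450P and was not called (-0.06), whereas 9 of 14 genes of the EGFR family and its ligands were higher in K30P and 2 in K450P. ERBB2 (52.7 and 16.5 FPKM), ERBB3 (37.5 and 13.3 FPKM) and the ligand AREG (67.5 and 26.3 FPKM) were on the K30P side. NRG1, a ligand of ERBB3, was 2.67, 2.61 and 3.43 FPKM in K30P and 23.7, 23.3 and 22.6 FPKM in K450P, log2 fold change 2.96 ± 0.11 (SE). LRIG1, which restrains EGFR, was 0.08 and 4.52 FPKM.

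Of 37 other receptor tyrosine kinases measured, 25 were tested, with 13 higher in K30P and 4 in K450P. Without the filter the counts were 13 and 5 of 37, and the median log2 fold change was -0.37 in place of -1.18. EPHA2 was 100.69, 89.2 and 91.8 FPKM in K30P and 3.53, 3.64 and 3.22 FPKM in K450P, log2 fold change -4.72 ± 0.07 (SE), and AXL had log2 fold change -2.71 ± 0.09 (SE). The members higher in K450P were EPHB3, FGFR4, FGFR2 and NTRK2, a neurotrophin receptor with 0.08, 0.17 and 0.12 FPKM in K30P and 13.4, 13.8 and 14.1 FPKM in K450P, log2 fold change 5.97 ± 0.17 (SE).

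TGF-beta, BMP and activin genes were higher in K30P at 20 of 39 tested and in K450P at 4. TGFBR1, the type I receptor, was 46.6, 44.1 and 42.9 FPKM in K30P and 9.54, 9.79 and 9.08 FPKM in K450P, log2 fold change -2.22 ± 0.05 (SE), and SMAD2, its effector, had log2 fold change -2.05 ± 0.04 (SE). The BMP target genes ID1 (316, 321 and 328 FPKM in K30P, 51.3, 52.8 and 52.7 FPKM in K450P) and ID3 (135 and 21.4 FPKM) had the same direction. BMP7, a ligand, was higher in K450P, log2 fold change 2.40 ± 0.08 (SE), and so was the activin antagonist FST, log2 fold change 1.87 ± 0.06 (SE).

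In the WNT and Notch list the direction was mixed, with 10 of 39 higher in K450P and 7 in K30P. The Notch ligands JAG1 (log2 fold change 1.39 ± 0.06 (SE)), JAG2 (log2 fold change 2.10 ± 0.05 (SE)) and DLL1 (log2 fold change 1.96 ± 0.10 (SE)) were higher in K450P, and the Notch target HEY1 was 27.0 FPKM in K30P and 2.07 FPKM in K450P. The WNT antagonists diverged, with DKK3 at 1.42, 2.86 and 1.43 FPKM in K30P and 91.2, 94.9 and 89.4 FPKM in K450P, log2 fold change 5.59 ± 0.24 (SE), and DKK1 at 96.5, 89.1 and 81.3 FPKM and 19.4, 16.5 and 21.04 FPKM, log2 fold change -2.23 ± 0.10 (SE). In the IGF axis 7 of 17 genes were higher in K30P and 3 in K450P. IGFBP6, an IGF2-binding protein, was 35.4, 33.0 and 32.7 FPKM in K30P and 670.4, 736 and 692 FPKM in K450P, log2 fold change 4.37 ± 0.05 (SE), whereas IGFBP3 had log2 fold change -3.91 ± 0.05 (SE) and the imprinted noncoding RNA H19 log2 fold change -1.76 ± 0.03 (SE).

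**Figure D2:**
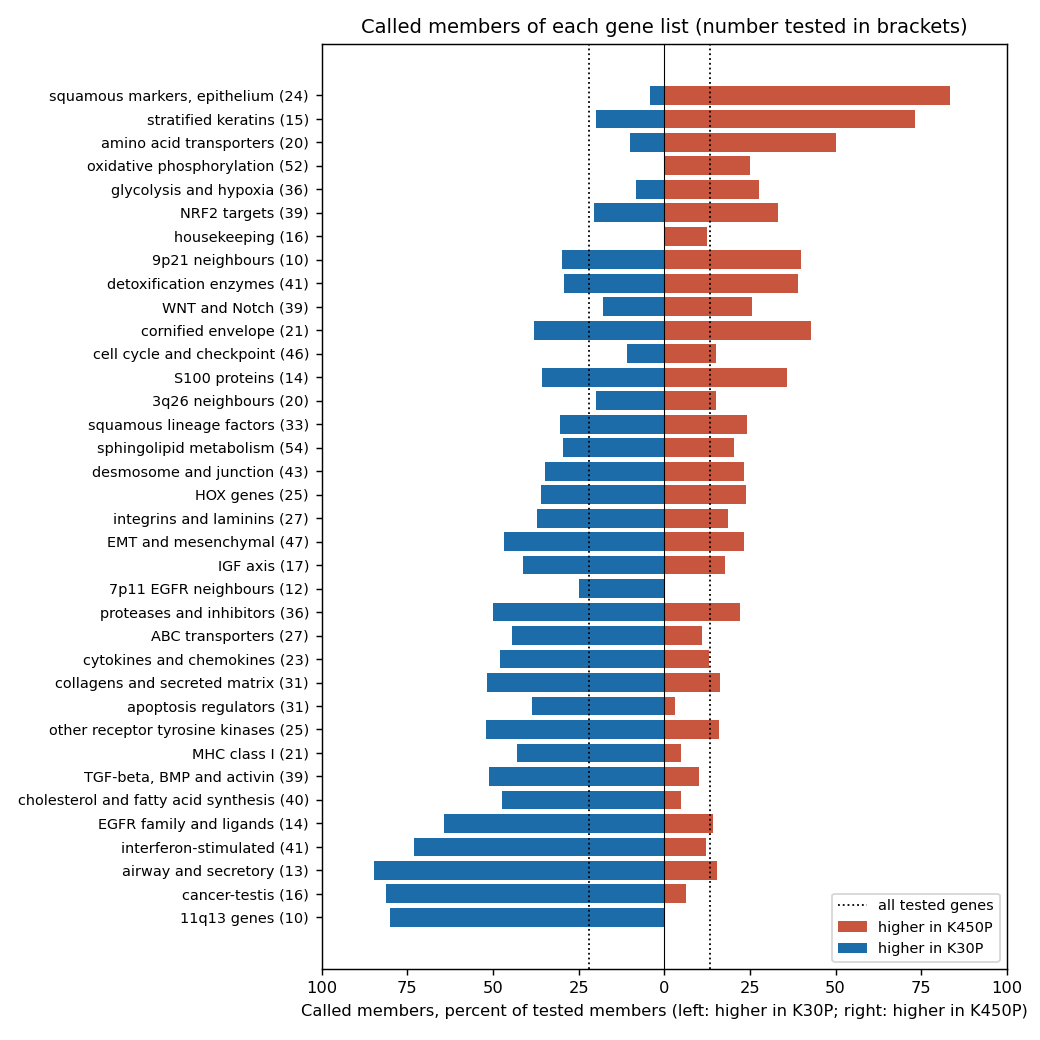
Called members of each gene list with at least 10 tested members, as a percent of its tested members (number in brackets), higher in K450P to the right and higher in K30P to the left. Dotted lines mark the 13.3% and 21.9% of all tested genes. Squamous markers, stratified keratins and amino acid transporters extend to the right, and the 11q13, cancer-testis, airway and interferon-stimulated lists to the left.

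Aldehyde and xenobiotic enzymes included large differences toward K450P. Of 41 detoxification enzymes, 16 were higher in K450P and 12 in K30P. ALDH3A1, which oxidizes aromatic and lipid aldehydes, was 16.2, 16.7 and 18.3 FPKM in K30P and 916, 1034 and 996 FPKM in K450P, log2 fold change 5.84 ± 0.06 (SE). The aldo-keto reductases AKR1C1 (0.06, 0.18 and 0.07 FPKM and 109.7, 112 and 107 FPKM) and AKR1C2 (0.52, 0.65 and 0.60 FPKM and 238, 235 and 240.3 FPKM) are near-identical, so their division is uncertain, but each was close to 0 in all K30P libraries. GPX2, a glutathione peroxidase of epithelia, had log2 fold change 4.38 ± 0.04 (SE).

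Targets of NRF2, the factor that drives antioxidant genes, were nevertheless found on both sides, 13 of 39 in K450P and 8 in K30P. The ferritin chains FTH1 (4605, 4831 and 4879 FPKM in K30P, 1126, 1131 and 1166 FPKM in K450P, log2 fold change -2.06 ± 0.03 (SE)) and FTL (2096, 2100.2 and 2237 FPKM and 496, 531 and 509.9 FPKM, log2 fold change -2.06 ± 0.04 (SE)) were both higher in K30P, by similar amounts. Of 4 metallothioneins tested, MT1E was higher in K30P and MT1X in K450P, the latter call being lost with a pseudocount of 1 and without K30P replicate 1 or 2 or K450P replicate 2. Among ABC transporters, 12 of 27 were higher in K30P and 3 in K450P. ABCC2, an exporter of conjugates, was 31.9, 34.2 and 33.0 FPKM in K30P and 0.32, 0.31 and 0.51 FPKM in K450P, log2 fold change -6.13 ± 0.16 (SE), and ABCC3 had log2 fold change -4.71 ± 0.16 (SE).

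Lipid synthesis genes were higher in K30P at 19 of 40 tested and in K450P at 2. FASN, the fatty acid synthase, was 635, 575 and 615 FPKM in K30P and 132, 157 and 128 FPKM in K450P, log2 fold change -2.14 ± 0.08 (SE). SCD, which desaturates fatty acids, had log2 fold change -1.67 ± 0.02 (SE). CYP51A1, a sterol demethylase of cholesterol synthesis, was 27.0, 27.8 and 26.3 FPKM in K30P and 63.7, 61.4 and 61.2 FPKM in K450P, the other direction. The count of members higher in K30P fell to 11 under median centering.

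Sphingolipid genes were called in both directions, 11 of 54 in K450P and 16 in K30P, which became 14 and 13 under quantile normalization and 13 and 13 under median centering. UGCG, which makes glucosylceramide, was 48.1, 54.1 and 51.3 FPKM in K30P and 6.40, 5.80 and 6.47 FPKM in K450P, log2 fold change -3.02 ± 0.07 (SE). FA2H, the fatty acid 2-hydroxylase of ceramide synthesis, was 0.15, 0.22 and 0.14 FPKM in K30P and 6.05, 6.56 and 5.47 FPKM in K450P, log2 fold change 4.51 ± 0.17 (SE), with no overlap between the lines.

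Energy genes were called mostly toward K450P. Of 52 oxidative phosphorylation genes, 13 were higher in K450P and none in K30P, with a median log2 fold change of 0.67 against -0.14 over all tested genes. No member was called toward K30P under quantile normalization (11 toward K450P) or median centering (22). ATP5B, a subunit of ATP synthase, was 480.5, 485 and 467 FPKM in K30P and 1545, 1517 and 1564 FPKM in K450P, log2 fold change 1.69 ± 0.03 (SE). Of 36 glycolysis and hypoxia genes, 10 were higher in K450P and 3 in K30P. LDHB had log2 fold change 1.64 ± 0.03 (SE) and the glucose transporter SLC2A1 log2 fold change 1.33 ± 0.04 (SE). The lactate exporter SLC16A3 (MCT4) was 377, 330.3 and 343 FPKM in K30P and 0.39, 0.53 and 0.81 FPKM in K450P, log2 fold change -9.06 ± 0.20 (SE). EPAS1 (HIF-2 alpha) had log2 fold change -4.67 ± 0.06 (SE), while HIF1A was 47.6 and 98.8 FPKM, log2 fold change 1.05 ± 0.06 (SE).

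Amino acid transporters were higher in K450P at 10 of 20 tested and in K30P at 2. SLC7A5 (LAT1), an importer of large neutral amino acids, was 50.8, 48.7 and 47.5 FPKM in K30P and 935, 1036 and 985 FPKM in K450P, log2 fold change 4.33 ± 0.04 (SE). SLC3A2, the heavy chain with which it pairs, was 117, 114 and 117 FPKM and 802, 853 and 863 FPKM, log2 fold change 2.85 ± 0.03 (SE). The cationic transporter SLC7A1 had log2 fold change 3.29 ± 0.05 (SE). SLC38A2 and SLC1A3 were higher in K30P.

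Of 46 cell cycle genes, 7 were higher in K450P and 5 in K30P. MYC was 28.0, 27.9 and 26.8 FPKM in K30P and 136, 141 and 134 FPKM in K450P, log2 fold change 2.31 ± 0.04 (SE). CDKN2A, the locus of p16 and ARF, was 42.8, 41.7 and 44.2 FPKM in K30P and 0, 0.05 and 0 FPKM in K450P, log2 fold change -8.55 ± 0.18 (SE). CDKN2B beside it on chromosome 9 was 39.8, 38.4 and 36.2 FPKM and 8.02, 6.27 and 7.73 FPKM, and the antisense CDKN2B-AS1 was 1.70 and 0.0067 FPKM. MTAP, the next gene, was higher in K450P, 19.5, 20.5 and 18.7 FPKM in K30P and 69.2, 66.8 and 65.1 FPKM in K450P, log2 fold change 1.77 ± 0.05 (SE). In this neighborhood 4 of 10 genes were higher in K450P and 3 in K30P. CDKN1A (p21) had log2 fold change -2.24 ± 0.04 (SE).

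Regulators of apoptosis were higher in K30P at 12 of 31 tested and in K450P only at CASP1, with counts of 8 and 3 under quantile normalization. BBC3 (PUMA), a p53 target that triggers mitochondrial apoptosis, was 15.9, 14.3 and 17.4 FPKM in K30P and 0.90, 1.44 and 1.28 FPKM in K450P, log2 fold change -3.63 ± 0.17 (SE). CASP1, the caspase of inflammasomes, was 1.63, 1.91 and 1.16 FPKM in K30P and 35.2, 30.6 and 27.4 FPKM in K450P, log2 fold change 4.24 ± 0.18 (SE).

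At 11q13, a region often gained in ESCC, 8 of 10 genes tested were higher in K30P and none in K450P, which became 8 and 1 under quantile normalization and 6 and 1 under median centering. CTTN, an actin regulator, was 681, 658 and 685 FPKM in K30P and 176, 182 and 178 FPKM in K450P, log2 fold change -1.92 ± 0.03 (SE). FADD, an adaptor of death receptors, was 142, 138 and 142 FPKM and 35.4, 36.3 and 35.9 FPKM, log2 fold change -1.97 ± 0.03 (SE). CCND1 (cyclin D1) was 102, 96.2 and 94.2 FPKM and 47.6, 47.9 and 40.9 FPKM, log2 fold change -1.10 ± 0.07 (SE), a call lost under median centering. Of 12 genes around EGFR at 7p11, 3 were higher in K30P and none in K450P. That is 25% called, no more than the 35.2% of all tested genes. VOPP1 was 247, 252 and 248 FPKM and 65.2, 65.4 and 64.5 FPKM, log2 fold change -1.93 ± 0.03 (SE), while EGFR was not called. Around SOX2 and TP63 on chromosome arm 3q, 3 of 20 genes were higher in K450P and 4 in K30P (35% called, near the share of all tested genes). These counts turned to 4 and 2 under quantile normalization and median centering. PIK3CA, the kinase gene of this region, had log2 fold change -1.09 ± 0.06 (SE), a call lost under both.

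Called genes were unevenly spread over the chromosomes. Genes higher in K30P made up 30.9% of those tested on chromosome 8, 30.1% on chromosome 19, 27.6% on chromosome 17 and 27.5% on chromosome 1, against 12.3% on chromosome 14. Genes higher in K450P made up 21.9% on chromosome 15, 20.3% on chromosome 18 and 20.2% on chromosome 9, and 6.6% on chromosome 20. The median log2 fold change ran from -0.54 on chromosome 19 to 0.21 on chromosome 15.

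**Figure D3:**
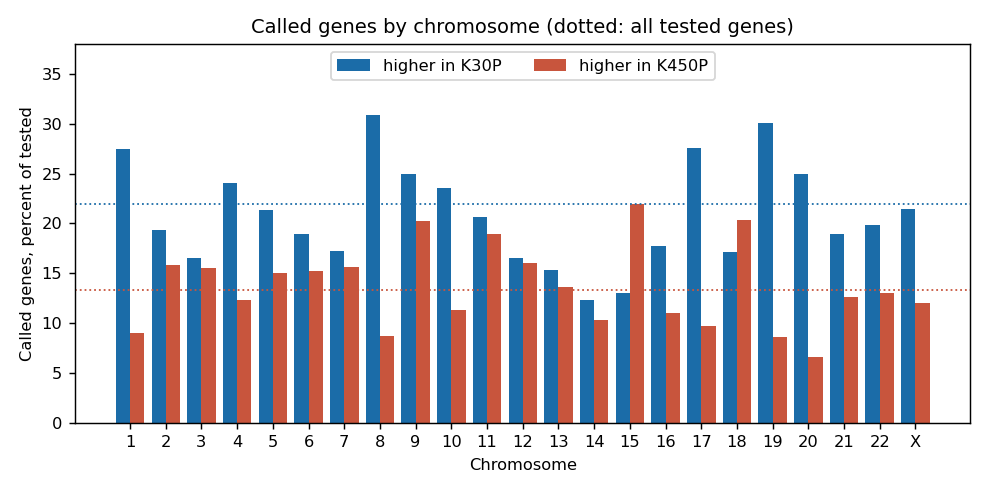
Genes called higher in K30P and in K450P on each chromosome, as a percent of the genes tested there, with the shares of all tested genes as dotted lines (21.9% and 13.3%). Chromosomes 8 and 19 have the tallest K30P bars, and chromosome 15 is the tallest K450P bar.

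Short sequence patterns were counted in the same 300-base promoter windows on both strands, as a description of letters only. Genes over 10-fold higher in one line had fewer CpG pairs, a median of 15 per window in K30P (427 windows) and 19 in K450P (324 windows), against 26 over all 10549 windows. GGGCGG (GC box) was in 50.6% and 60.5% of these windows against 70.4% of all. TGANTCA, the AP-1 pattern, was in 11% of the K30P windows and 7.41% of the K450P windows against 4.66% of all, and TATAAA in 10.3% and 11.4% against 5.64%.

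HOX genes, which hold positional identity, were higher in K450P at 6 of 25 tested and in K30P at 9. With no filter the counts were 12 and 10 of 39, so that the side with more calls turned. HOXA9 was 1.33, 2.70 and 1.67 FPKM in K30P and 47.6, 46.6 and 52.8 FPKM in K450P, log2 fold change 4.67 ± 0.22 (SE), while HOXA10 next to it was 15.1 ± 0.36 FPKM and 14.5 ± 1.35 FPKM and was not called. HOXC10 and HOXC13 were 11.5 and 18.1 FPKM in K30P and 0.80 and 2.44 FPKM in K450P.

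Some markers of other cell types were expressed in 1 line. Of 9 endothelial markers, CDH5 (VE-cadherin) alone was tested, with 6.15, 5.28 and 6.52 FPKM in K30P and 0.02, 0 and 0 FPKM in K450P, while KDR was at most 0.02 FPKM in any of the 6 libraries. The summed level of the endothelial list was 6.4 to 8.3 FPKM in K30P and 0.6 to 0.7 FPKM in K450P. Of 13 melanocyte and neural markers 4 were tested, 3 higher in K30P and none higher in K450P. TUBB3, a tubulin of neurons, was 46.1, 42.4 and 41.2 FPKM in K30P and 3.39, 3.59 and 3.23 FPKM in K450P, log2 fold change -3.63 ± 0.07 (SE), while SOX10 and CHGA were at most 0.09 and 0.10 FPKM. The summed level of the 14 fibroblast and smooth muscle markers was 7.5 to 9.5 FPKM in K30P and 28.4 to 32.8 FPKM in K450P, the latter mostly PDPN. The 14 leukocyte markers summed to 11.6 to 13.9 FPKM in K30P and 92.5 to 95.9 FPKM in K450P, the latter mostly LCP1. Of the 4 tested, 2 were higher in K450P and 2 in K30P. The part of any of these markers in the other differences was not tested.

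Genes with no difference were found at high levels too. EEF1A1, a translation elongation factor, was 7418, 7415 and 7274 FPKM in K30P and 7378, 7196 and 7524 FPKM in K450P. DCTD was 76.2 ± 3.22 and 76.3 ± 1.31 FPKM and SEPT7 78.6 ± 4.37 and 78.4 ± 1.39 FPKM. ETFB (108 ± 6.89 FPKM in K30P, 108 ± 4.55 FPKM in K450P), RARS (68.0 ± 3.05 and 68.0 ± 3.09 FPKM) and RNASEK (86.8 ± 2.38 and 86.9 ± 1.23 FPKM) had overlapping libraries as well. Of 16 housekeeping genes, 2 were higher in K450P, none was higher in K30P, and the median log2 fold change was 0.24. ICAM1, an adhesion molecule, was 0.10, 0.37 and 0.09 FPKM in K30P and 0.12, 0.13 and 0.18 FPKM in K450P and FOXC2 0.15, 0.17 and 0.09 and 0.19, 0.50 and 0.11 FPKM, so both were below the level needed for testing.

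The lung-selected libraries, which the comparison above did not use, were compared in the same way. Of 14507 genes tested between K450LM2 and K30LM3, 4463 were called (30.8%), 2057 higher in K450LM2 and 2406 higher in K30LM3. Only 4757 of the 5203 genes called between the parental lines were also tested here, and the others count below as not shared. Of the 1966 genes higher in K450P, 1346 (68.5%) were also higher in K450LM2 and 4 were higher in K30LM3, and of the 3237 genes higher in K30P, 1943 (60.0%) were also higher in K30LM3 and 11 were higher in K450LM2. Seen from the selected libraries, 65.4% of the K450LM2-higher genes and 80.8% of the K30LM3-higher genes had the same call between the parental lines. MAGEA4 was 302, 301 and 291 FPKM in K30LM3 and listed at 0 in every K450LM2 library, MSN was 0.17, 0.26 and 0.23 and 179, 178 and 175 FPKM, and KRT19 was 1239, 1279 and 1304 and 0.35, 0.47 and 0.44 FPKM, each with the same line on the high side.

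The difference between the lines itself was tested by the interaction of line and selection, called at 1903 of 15488 genes (12.3%). It was positive, toward KYSE450 after selection, at 1343 and negative at 560, which became 875 and 789 under quantile normalization. The interaction uses the parental libraries again, so the counts that follow are descriptions. The number of selection rounds also differed between the lines, and its part in the interaction cannot be told apart. Among genes higher in K450P, 404 had a called interaction and 114 of these differed by less than 2-fold after selection. Among genes higher in K30P the counts were 821 and 286. KRT5 was 15.2, 15.8 and 16.9 FPKM in K30LM3 and 5252, 5589 and 5532 FPKM in K450LM2, so that its difference fell by 6.68 on the log2 scale, a size that depends on the pseudocount, while it stayed far higher in KYSE450. AGR2 was 512, 543 and 547 FPKM in K30LM3 and 306, 300.2 and 330.5 FPKM in K450LM2, a log2 fold change of -0.77 against -2.96 between the parental lines. SOX15 was 32.1, 31.3 and 30.1 and 22.2, 25.1 and 24.5 FPKM after selection, -0.38 against -4.40, and CALML3 was 5.07, 4.70 and 4.92 FPKM in K30LM3, 1.38 against 8.56. KRT8 (-0.25) and KRT18 (-0.58) no longer differed 2-fold, and their levels in K450LM2 were 1892, 1914 and 1852 FPKM and 1052, 1032 and 1003 FPKM. CLU (clusterin), a secreted chaperone, had -0.85 against -2.83, NEAT1, a nuclear noncoding RNA, -0.02 against -1.12, and S100A14 0.42 against -1.43. VIM was not called between the parental lines (0.96) and was 35.2, 32.1 and 31.8 FPKM in K30LM3 and 1.25, 1.44 and 1.37 FPKM in K450LM2, a log2 fold change of -4.51.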

How the data were processed

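RNA from 3 libraries of each group was sequenced. The FPKM values were deposited by the authors as 1 table of 57820 gene IDs with no counts, so the edgeR test of the study's methods was replaced by limma. Tools listed by the submitters' processing notes were STAR 2.5.1b, Trimmomatic 0.36, RSEM 1.2.29, FastQC and edgeR 3.8.5, with hg19 as the build, and whether counting used strand is not given in the sources used here. Depth was estimated from the steps between low FPKM values of genes with 1 transcript, as 23.6 to 28.6 M fragments in the parental libraries, and covers sampling only approximately. Gene chromosome and type came from GENCODE 29 by ID (52338 matched), with no coordinates converted. Promoter windows came from RefSeq on GRCh38.p14, with 10549 tested genes matched by gene ID, or by symbol where the ID gave no window.

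Genes with at least 1 FPKM in 3 or more of the libraries compared were fitted on log2(FPKM + 0.1) with limma 3.58.1 (lmFit, eBayes with trend, R 4.3.3). P-values were adjusted by Benjamini-Hochberg over all tested genes, and a gene was called at an adjusted p under 0.05 and a fold above 2. An exact permutation test of 3 against 3 libraries cannot go below a p of 0.1 and was not used. The script was tested on simulated data. The selected libraries and the interaction of line and selection were fitted in the same way. Alternatives were other pseudocounts, filters, fold thresholds and scalings, no trend, a replicate block, 1 fit of all 12 libraries and leaving out each library.

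The genes compared and the lists were chosen with earlier results of these data known. Named genes were the 12 largest changes in each direction among genes whose libraries did not overlap and whose higher line averaged 10 FPKM or more, up to 4 called members of each list in each direction by level, all tested lineage factors and keratins, up to 6 genes whose difference was lost after selection, 6 genes with a mean of at least 50 FPKM nearest to no change, and genes the study names. Other named genes, among them FAM50B, EZR, RDX, SNRPN, MAGED1, EGFR, IFIT1, IFIT3, IFI6, IRF1, IRF9, STAT2, B2M, BBC3, DSG3, FN1, SPARC, IVL, LIF, TJP1, TJP3, TRIM29, F11R and HOXA10, were chosen after their values were seen. BAGE and PECAM1 of the lists were not analysed here.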

Additional observations from a re-analysis of the deposited data

Results flagged for a closer look

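The difference between KYSE450 and KYSE30 was compared with that after lung selection by the interaction of line and selection in limma, called at 12.3% of all genes tested. It was called at 11 of the 24 genes named for the size of their parental difference and at the 6 genes named for its loss after selection. The interaction uses the parental libraries that chose these genes, a choice that favors a smaller difference in the selected libraries, and the difference was smaller at all 17. The values are therefore descriptions. In each case the value given is the log2 difference between the lines in the selected libraries minus that in the parental libraries.

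Among genes higher in K450P, KRT5 had an interaction of -6.68 (adjusted p = 1.62e-07), KRT17 -4.06 (3.39e-09), KRT6A -3.40 (6.57e-12) and CSTA -3.17 (5.18e-06). AKR1C1 had -2.33 (adjusted p = 0.000684), PKP1 -1.91 (9.08e-07), GBP6 -1.32 (0.000126) and CALB1 -1.18 (6.84e-06). All 8 stayed higher in all 3 K450LM2 libraries than in all 3 K30LM3 libraries. KRT5 was 15.2, 15.8 and 16.9 FPKM and KRT6A 17.7, 18.7 and 19.2 FPKM in K30LM3, above their K30P levels, whereas the mean of KRT13 was 344 FPKM in K30P and 176 FPKM in K30LM3 and that of KRT15 51.6 and 33.3 FPKM.

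Among genes higher in K30P, KRT19 had an interaction of 1.12 (adjusted p = 0.0153), STRA6 1.34 (0.000646) and CST6 1.28 (0.0045), and each remained far higher in K30LM3 than in K450LM2. KRT5, CALB1, PKP1, AKR1C1, CSTA and GBP6 were at most 0.20 FPKM in any K30P library, and CST6 (listed at 0) and STRA6 at most 0.02 FPKM in any K450P library, so the size of these values depends on the pseudocount of 0.1. AGR2 had 2.19 (adjusted p = 6.57e-10), CLU 1.99 (3.71e-07), S100A14 1.85 (7.15e-11), KRT18 1.21 (1.50e-09), KRT8 1.11 (7.18e-09) and NEAT1 1.10 (2.69e-06). These 6 genes were named because their interaction was called and the selected libraries differed by less than 2-fold, so their interaction describes the choice.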

How the results depend on the processing

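The table has no counts, so FPKM values below 1 and the shares of near-identical genes were the least certain. The counts of 1966 genes higher in K450P and 3237 higher in K30P moved with the thresholds. A minimum of 5 FPKM gave 1245 and 2094, a fold above 4 gave 852 and 1496, and a fold above 1.5 gave 3306 in K450P. The selected comparison (4463 genes) gave 6699 with no filter, 2727 with a minimum of 5 FPKM, 7253 at a fold above 1.5 and 2010 at a fold above 4. The interaction (1903 genes) gave 1036 with a pseudocount of 1, 1013 with a minimum of 5 FPKM, 3912 at a fold above 1.5 and 458 at a fold above 4. Leaving out 1 library at a time, with the filter applied again, gave 1246 to 1987 genes higher in K450P, 2106 to 3252 higher in K30P, 3643 to 3683 in the selected comparison and 1724 to 1891 for the interaction. The lower parental counts follow from the filter, since with 2 libraries left a gene present in that line alone cannot reach the minimum in 3. With all tested genes kept, a setting chosen after the data were seen, the ranges were 1948 to 1988 and 3195 to 3256.

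Among genes named by the rules above, no called gene changed direction under any setting that still tested it. Changes of sign at genes not called were not counted. Genes that met no rule and were named only after their values were seen were left out of this check. Of 302 tested named genes, 281 kept their call under quantile normalization (16 lost it and 5 gained one), 278 under median centering (19 and 5), 289 with a pseudocount of 1 (13 lost) and 301 with a pseudocount of 0.01 (VIM gained one). All 302 kept it in 1 fit of all 12 libraries, without the trend and with no filter. Libraries of the same replicate number did not deviate together (correlations of deviations 0.005, -0.023 and -0.012 in the parental lines). These values do not show whether such libraries were handled together. A fit with replicate as a block gave 1976 genes higher in K450P and 3255 higher in K30P, 4470 in the selected comparison and 1903 for the interaction, and changed no named call.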
